A study of Homo sapiens with 8 samples.

Results

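Peaks of open chromatin on sequences outside the placed chromosomes of hg19 were examined in 8 fractions of 293T cells. The members are all peaks whose sequence name contains the character _. They number 693 of 119972 peaks (0.578%), lie on 33 sequences, and merge into 166 of 36845 regions when peaks of different lists that share at least 1 bp are joined. They were treated as 3 groups. The sequence gl000220, which carries copies of the ribosomal RNA genes, held 120 peaks in 19 regions. The 22 other unplaced (chrUn) sequences held 287 peaks in 83 regions. The 10 sequences that are assigned to a chromosome without a position in it (random sequences, from 7 chromosomes) held 286 peaks in 64 regions. Alternative haplotype names occurred 0 times.

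In human cells the ribosomal RNA genes are tandem repeats on the short arms of the acrocentric chromosomes. RNA polymerase I transcribes them into 1 long precursor of the 18S, 5.8S and 28S RNAs, and active repeats form the nucleolus. An assembly such as hg19 holds only a few of the many copies in a cell, so reads from all repeats gather on those few. Unplaced and random sequences are contigs that could not be put in order, often because they are rich in repeats or segmental duplications.

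The cells were 293T, a human embryonic kidney line with the SV40 large T antigen, and all 8 groups are the same cells. They had been crosslinked, permeabilised and treated with transposons, and were then mixed with Q Sepharose, an anion exchange resin. FT is the material that did not bind. G20, G100, G200, G300, G500, G700 and G1000 were collected in turn with 20, 100, 200, 300, 500, 700 and 1000 mM NaCl, in 1 tagmented preparation as far as the labels tell. Each fraction is 1 library, so no difference has a replicate check, and the tests below compare libraries and not salt conditions. Which ATAC-seq reads fell in which rRNA gene was not analysed here, since no gene annotation of hg19 was used.

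The authors' peak lists held between 8102 (G700) and 22807 (FT) peaks. The reads under each summit, recovered from the authors' fold enrichment and p-value, stand in for depth, and reads at ordinary regions of the placed chromosomes summed to between 58858 (G700) and 125907 (FT). A pileup of paired reads may count fragments. G200 stood apart from the other libraries. Its peaks carry the name G50_200 inside the file, and part of its fold enrichments are written with fewer decimals than in any other list. Whether this list is that of the 200 mM wash alone could not be settled from the sources used here, and G200 below means the library with that label. The variance of its reads over the ordinary regions was 2.49 times that of binomial counting. The same measure was 1.61 in FT and between 0.766 and 0.968 in the other 6 libraries. Results that rest on G200 or FT are therefore given also without them.

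Peaks on the member sequences were called in every fraction. There were 134, 104 and 77 in FT, G20 and G100, 75 in G200, 98 in G300, and 72, 69 and 64 in G500, G700 and G1000. They made up between 0.469% of the list in G200 (95% exact Clopper-Pearson interval 0.369% to 0.588%) and 0.852% in G700 (0.663% to 1.08%). The 3 shortest lists, G500, G700 and G1000, had the 3 highest shares. With the 8102 peaks of highest −log10 q from each list, the share was highest in FT, at 1.06%, and lowest in G200, at 0.679%. All intervals here cover counting error only.

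A few sequences held most of the peaks. The chromosome 9 sequence gl000199_random had 140, which is 20.2% of the member peaks, and gl000220 had 120, which is 17.3%. On gl000199_random the lists held 26, 22 and 14 peaks in FT, G20 and G100, 13 in G200, 20 in G300, and 16, 15 and 14 in G500, G700 and G1000. On gl000220 they held 19, 16 and 13 in FT, G20 and G100, 14 in G200, 15 in G300, and 13, 16 and 14 in G500, G700 and G1000. The count on gl000220 thus varied little, while the unplaced gl000225 ranged widely. It held 19, 13 and 10 peaks in FT, G20 and G100, 5 in G200, 15 in G300, and 8, 6 and 6 in G500, G700 and G1000. The chromosome 7 sequence gl000195_random followed with 50 peaks, and gl000226, gl000228, gl000224 and gl000205_random (chromosome 17) had 37, 25, 24 and 24.

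**Figure D1:**
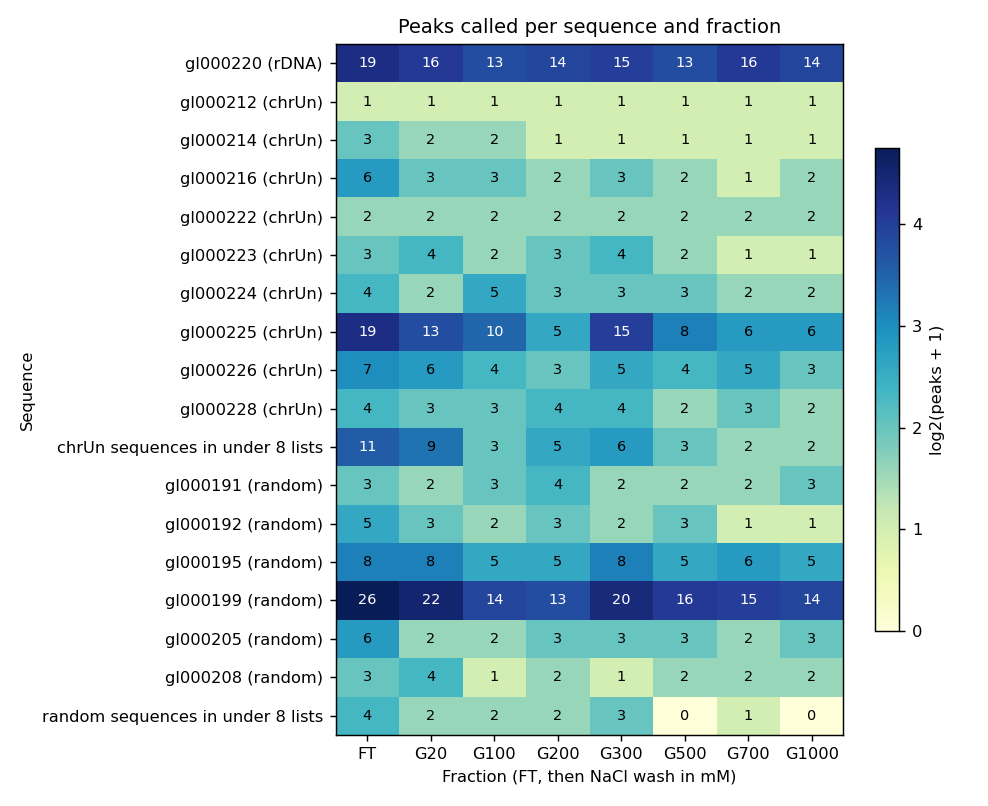
Number of peaks in the authors' lists for each sequence (rows) and fraction (columns, FT and then NaCl in mM); colour shows log2(peaks + 1), and sequences called in fewer than 8 lists are summed by group. The sequences gl000199 and gl000220 hold at least 13 peaks in every fraction, while gl000225 holds 19 in FT and 5 in G200.

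Of the 33 sequences, 16 had a peak in all 8 lists and 8 had a peak in 1 list. The 8 were gl000215, gl000217, gl000221 and the random sequence gl000198 in FT, gl000237 and gl000244 in G20, gl000229 in G200 and gl000231 in G300. Each of these held 1 peak.

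Member regions were shared by all lists more often than regions of the whole series. Of the 166 member regions 41 (24.7%, interval 18.3% to 32%) were called in all 8 lists, against 11.5% of all 36845 regions. The share was 52.6% on gl000220 (10 of 19), 18.1% on the other chrUn sequences (15 of 83) and 25% on the random sequences (16 of 64). Regions called in 1 list made up 28.3% of the members (47 regions), against 40.7% of all regions. Of these 47, 23, 9 and 1 were called in FT, G20 and G100, 4 in G200, 4 in G300, and 1, 5 and 0 in G500, G700 and G1000. Over all 15013 single-list regions the counts were 4360, 2694 and 1023 in FT, G20 and G100. They were 2345 in G200, 3109 in G300, and 565, 349 and 568 in G500, G700 and G1000. Single-list member regions were weak, with a median −log10 q of 4.45 over their peaks, while the peaks of regions in all 8 lists had a median of 20.3. The median over the peaks of all regions of the series was 2.98 for 1 list and 11.1 for 8 lists, so the member medians were higher in both classes. These shares and medians depend on list length and were not tested.

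The strongest member peak was the same in 7 of the 8 lists. It lay at 34295 to 34716 of gl000199_random, and ranked between 7 and 12 in the whole list by −log10 q. Its −log10 q was 249, 175 and 129 in FT, G20 and G100, 180 in G300, and 109, 92.9 and 118 in G500, G700 and G1000, with an authors' fold enrichment over local background of 22.7 to 27.5. In G200 the strongest member peak was on gl000220, at 116989 to 118388. It had a −log10 q of 395, a fold enrichment of 5.02 and 1129 reads, and ranked 5 in that list.

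On gl000220 the peaks were wide, deep and of low fold enrichment. The median width in a list was 550 to 1308 bp on gl000220, against 418 to 528 bp on the placed chromosomes. The median fold enrichment was 2.55 (G700) to 3.69 (G200) on gl000220, 5.11 to 6.26 on the other chrUn sequences, 4.88 to 6.37 on the random sequences and 5.35 to 5.82 on the placed chromosomes. The local background, which is the read density around a peak against which its fold is computed, was highest on gl000220, the group with the lowest median folds. Its median on gl000220 was 117 (G700) to 636 (G200) times the genome background of the same list. It was 3.9 to 10.4 times on the other chrUn sequences, 9 to 14.7 times on the random sequences and 2.54 to 3.67 times on the placed chromosomes. Among all member regions 9 were at least 1500 bp wide, and 5 of these were on gl000220.

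The 10 regions of gl000220 called in all 8 lists are named A to J here, in order along the sequence. Region A spans 6923 to 8275, B spans 93229 to 94422, C spans 104482 to 107611, D spans 109217 to 111023 and E spans 116972 to 118393. Region F spans 133882 to 135325, G spans 149353 to 151200, H spans 153190 to 154989, I spans 158635 to 160311 and J spans 160853 to 161684. Positions are those of hg19, counted from 1. The other 9 regions of the sequence were called in 1 to 7 lists.

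The local background divided gl000220 into stretches, whose borders were chosen after the values were seen. In the first stretch, which is region A, it was 24.4 to 41.3 times the genome background over the 8 lists. In the second stretch, from 52381 to 97327, it was 4.59 to 15.4 times. In the third stretch, from 104482 to 120721, it reached 117 to 1178 times. It was 49.6 to 141 times in the fourth stretch, from 126317 to 142851, and 86.6 to 994 times in the fifth, from 148634 to 161684. The third stretch and the fifth, with C, D, E and G, H, I, J, had higher medians than the other 3 stretches in every list. Region A had the highest folds of the 10 regions, at 11.0 to 14.6, and C had folds of 1.91 to 2.60.

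**Figure D2:**
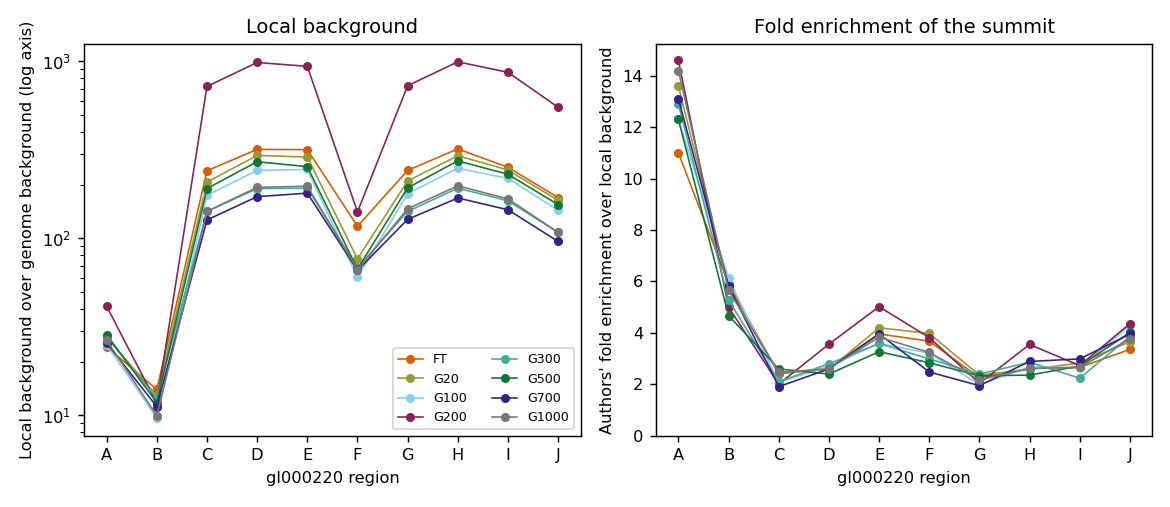
Local background over the genome background of the same list (left, log axis) and the authors' fold enrichment of the summit (right, from 0) for regions A to J of gl000220, with 1 line for each fraction. In G200 the local background of C, D, E, G, H, I and J is 550 to 994 times the genome background and above every other fraction, while folds of the same regions stay between 2.01 and 5.02.

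Peaks on gl000220 recurred at a fixed distance. Of 447 distances of 20 to 80 kb between summits of the same list, 19 lay within 100 bp of 43972 bp, and the next most common distance, 65346 bp, had 11. The distance is in the range known for a human ribosomal DNA unit. When regions called in at least 7 lists were moved by it, C overlapped G, D overlapped H, the region at 114786 to 116231 (called in 7 lists, not in G700) overlapped I, and E overlapped J. The summits of E and J themselves lay 43307 to 43534 bp apart, so that pair rests on the overlap and not on the summit distance. These 4 pairs are called copies below. At the second copy the peaks had nearly the same reads as at the first. The ratio of the second copy to the first was 0.907 to 1.15 for G over C, 0.989 to 1.10 for H over D and 0.897 to 1.04 for I over the region at 114786. The 95% interval of the ratio held 1 in all 23 comparisons of these 3 pairs. The authors' handling of reads that match several places is not given in the sources used here, so the reads of the copies may not be independent.

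The last pair differed. Region J had 0.457, 0.499 and 0.704 times the reads of E in FT, G20 and G100, 0.511 in G200, 0.612 in G300, and 0.756, 0.542 and 0.543 in G500, G700 and G1000. The interval held 1 in 0 of the 8 libraries. In every library the summit of E, moved by the unit length, would lie past the end of region J, which is also the last region called on gl000220.

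**Figure D3:**
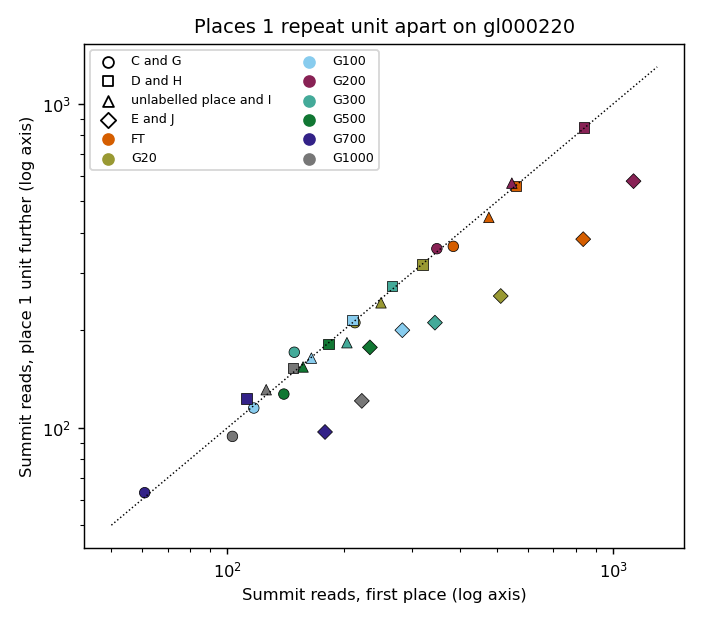
Summit reads at the place 1 unit further along gl000220 (vertical, log axis) against those at the first place (horizontal, log axis), for 4 pairs of places (marker shape) and 8 fractions (colour); the dotted line marks equal reads. Markers of the other 3 pairs lie along the line, and the pair of E and J lies below it in all 8 fractions.

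Reads at regions shared by all lists were then compared between libraries. For each region the reads of a library were set against those of the other 7, with the share expected from the ordinary regions. An exact binomial test (two-sided) was used with Benjamini-Hochberg adjustment over 33760 tests, and an adjusted p under 0.05 was called. Over the whole series 105 of 4220 regions (2.49%) were called in any library. Of the 41 member regions 20 were called (with 45 regions and 11 members called without G200, 40 and 11 with the variance of each library widened by its own spread, and 1187 regions when scaled to the genome background), with 8 of 10 on gl000220, 6 of 15 on the other chrUn sequences and 6 of 16 on the random sequences.

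The highest ratios among the members were those of D, H, E, I and J, 5 of the rDNA copies, in G200. In G200 the 7 copies called in every list, summed, had 2.88 times the reads expected from the other 7 libraries (interval 2.78 to 2.98), and in FT 1.36 times (1.31 to 1.42). The other libraries were below 1, at 0.778 and 0.711 in G20 and G100, 0.563 in G300, and 0.775, 0.545 and 0.609 in G500, G700 and G1000. As a level, the reads of the 7 copies came to 2.80%, 1.76% and 1.60% of the reads of ordinary regions in FT, G20 and G100, 5.08% in G200, 1.32% in G300, and 1.73%, 1.23% and 1.38% in G500, G700 and G1000. G200 was thus the highest library, FT the next, and the other 6 lay between 1.23% and 1.76%. A library with a high level lowers the ratio of each of the others, so values of those 6 against each other are given further on.

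Region E, the deepest of the sequence, had 836, 511 and 284 reads in FT, G20 and G100, 1129 in G200, 345 in G300, and 234, 179 and 223 in G500, G700 and G1000. Relative to expectation it was 3.04 times in G200 (interval 2.83 to 3.26, adjusted p = 2.9e-175 by the exact binomial test) and 1.40 times in FT (1.29 to 1.51, adjusted p = 2.8e-13). Of the 4098 ordinary regions, 2 had a G200 ratio at least as high.

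Region D had 559, 320 and 211 reads in FT, G20 and G100, 841 in G200, 267 in G300, and 183, 112 and 148 in G500, G700 and G1000. Its copy H had 557, 319 and 215 in FT, G20 and G100, 846 in G200, 274 in G300, and 181, 123 and 153 in G500, G700 and G1000. These 2 regions had the highest G200 ratios of the sequence, 3.28 for D and 3.26 for H, and FT ratios of 1.30 and 1.28. Both were called in all 8 libraries, higher in FT and G200 and lower in the other 6, as was E.

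Region C had 385, 214 and 117 reads in FT, G20 and G100, 349 in G200, 149 in G300, and 140, 61 and 103 in G500, G700 and G1000. Its copy G had 363, 211 and 115 in FT, G20 and G100, 357 in G200, 171 in G300, and 127, 63 and 94 in G500, G700 and G1000. Here FT and G200 lay close in reads, and the ratios were 2.10 and 2.19 in G200 and 1.65 and 1.55 in FT. Region I had 446, 243 and 164 reads in FT, G20 and G100, 569 in G200, 183 in G300, and 154, 91 and 131 in G500, G700 and G1000. Region J had 382, 255 and 200 in FT, G20 and G100, 577 in G200, 211 in G300, and 177, 97 and 121 in G500, G700 and G1000. Their G200 ratios were 2.83 and 2.81. In FT region I was called (1.41, adjusted p = 3.7e-07 by the exact binomial test), and J had a ratio of 1.13 that was not called.

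The 3 regions outside the copies differed from them in G200, and were not alike. Region F had 287, 131 and 64 reads in FT, G20 and G100, 132 in G200, 103 in G300, and 55, 42 and 65 in G500, G700 and G1000. It was highest in FT, at 2.35 times expectation (interval 2.04 to 2.71, adjusted p = 1.1e-25 by the exact binomial test). Of the 4098 ordinary regions, 0 had an FT ratio at least as high. The G200 ratio of F was 1.24 and was not called. Region A had 187, 170 and 110 reads in FT, G20 and G100, 158 in G200, 189 in G300, and 109, 95 and 123 in G500, G700 and G1000, with ratios between 0.857 in G100 and 1.14 in G1000. Region B had 60, 36 and 24 in FT, G20 and G100, 18 in G200, 37 in G300, and 19, 21 and 21 in G500, G700 and G1000. Neither A nor B was called in any library. Together A, B and F had a G200 ratio of 1.11 (interval 0.982 to 1.25), against 2.88 for the copies. It was 1.13 in A, 0.580 in B and 1.24 in F. Their FT ratio together was 1.50 (interval 1.36 to 1.66), against 1.36 for the copies. It was 0.951 in A, 1.65 in B and 2.35 in F. Region F was also called lower in G100 (0.631), G300 (0.676) and G700 (0.578). Each of these calls was lost with the widened variance. They were also lost without FT (0.787, 0.854 and 0.716) and without G200 (0.647, 0.693 and 0.591).

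**Figure D4:**
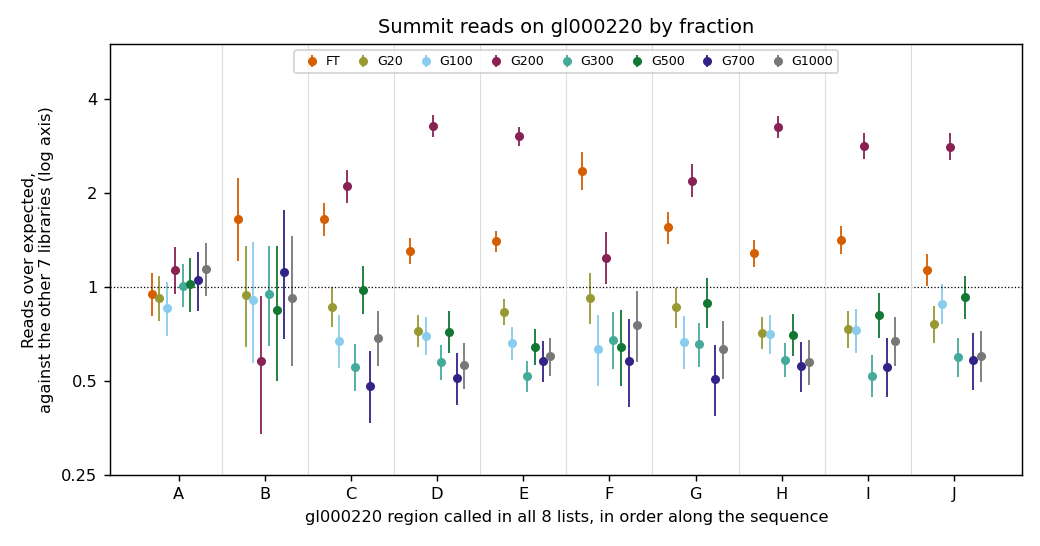
Summit reads over the reads expected from the other 7 libraries (vertical, log axis) for regions A to J of gl000220, with 1 point for each fraction and 95% intervals that cover counting error only. The 7 copies (C, D, E, G, H, I, J) lie at 2.10 to 3.28 in G200, F is highest in FT at 2.35, and A lies between 0.857 and 1.14 in all fractions.

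Read as counts of calls, 7 regions of gl000220 rose in G200 and 7 in FT, where 0.711% and 0.592% of all regions were called higher. Reads of the copies may not be independent, so counts of gl000220 regions need not be counts of separate results. Scaled to the genome background, 1 of the 7 was called in FT. In the other libraries gl000220 regions were called lower. G20 had 5 such regions (0.308% of all regions were called lower), G100 had 7 (0.237%), G300 had 8 (0.284%), G500 had 3 (0.0711%), G700 had 8 (0.237%) and G1000 had 7 (0.213%). High reads in G200 or FT lower these ratios, so the lower calls need not be separate results. Without G200, 18 of 45 gl000220 results were kept, and D was at 0.970, 0.917 and 0.939 in G20, G100 and G500, not called. Members called higher numbered 0 in G20 (0% of all regions), G100 (0.166%), G300 (0.0237%), G700 (0.142%) and G1000 (0.0237%), and 0 were called lower in FT (0.308%). The 7 regions higher in G200 stayed called under every alternative in which their reads were tested, including a variance widened by the spread of each library. The FT ratios depend on the scaling. With the genome background of each list in place of the ordinary regions, the FT ratio of gl000220 was 0.986 and that of G200 was 4.23, and D, E and H were below 1 in FT, at 0.930, 0.997 and 0.914. Regions C, G and I were at 1.18, 1.10 and 1.01 in FT and were no longer called. Region F stayed called, at 1.68. The local background rose with the reads. Around the 10 regions together it was 2.33 times expectation in G200 and 1.47 times in FT, so the authors' fold enrichment, used in place of reads, gave 1.05 in G200 and 0.964 in FT.

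Without FT and G200 little of this pattern was left to call. Among the remaining 6 libraries 19 of 4430 regions passed the test, and 3 of 43 members. Region E was higher in G20, at 1.38 times the other 5 (adjusted p = 9.1e-06 by the exact binomial test). In the comparison with all 7 other libraries the same region was lower in G20, at 0.831. Against the other 5, the copies together had ratios of 1.22 in G20 (interval 1.16 to 1.28), 1.07 in G100 (1.00 to 1.13), 0.840 in G300 (0.794 to 0.887), 1.16 in G500 (1.09 to 1.24), 0.794 in G700 (0.735 to 0.857) and 0.896 in G1000 (0.837 to 0.959). The order of these 6 did not follow the salt.

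The low side (FT, G20 and G100 summed) was compared with the high side (G500, G700 and G1000 summed). Over all regions 14 of 4220 (0.332%) were called, 11 of them higher on the low side (0.261%). Of these 11, 8 were gl000220 regions, C to J, with ratios from 1.29 for J to 1.82 for F. Region E had 1631 low-side and 636 high-side reads, a ratio of 1.57 (adjusted p = 1.3e-19 by the exact binomial test). Region F had 482 low-side and 162 high-side reads. Region A had a ratio of 0.872 and B of 1.20, neither called. The calls rest largely on FT. Without FT 1 member was called higher on the low side, and without G700 5 were.

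A pair of regions on chromosome 21, near 9.8 Mb, is close to a ribosomal DNA-like part of hg19 and was set beside gl000220. The region at 9826754 to 9827559 had 308, 192 and 106 reads in FT, G20 and G100, 473 in G200, 148 in G300, and 120, 78 and 76 in G500, G700 and G1000. Its G200 ratio was 3.23 and its FT ratio 1.25. The neighbour at 9825598 to 9826406 had 1.51 in G200 and 1.81 in FT. Both regions were called higher in G200, and the one at 9825598 also in FT. The pair together was at 2.59 in G200 and 1.43 in FT, against 2.62 and 1.38 for gl000220 as a whole. Whether the 2 places share reads was not tested.

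On the other unplaced and random sequences G200 was low rather than high. Of their 31 regions called in all 8 lists, 26 had a G200 ratio below 1, with a median of 0.619. The median over all regions of the series was 0.956, and 44.3% of these were above 1. The 15 regions of the chrUn sequences together were at 0.584 in G200 (interval 0.532 to 0.640) and 1.19 in FT (1.12 to 1.27). The 16 regions of the random sequences were at 0.839 in G200 (0.783 to 0.899) and 1.09 in FT (1.03 to 1.15). By call, 9 member regions fell in G200, where 1.14% of all regions were called lower, 5 on chrUn and 4 on random sequences. This direction depends on the scaling and on the assumed spread. Scaled to the genome background the G200 ratios were 0.944 for chrUn and 1.36 for random sequences with 0 called lower, and the FT ratios turned to 0.850 and 0.781. With the widened variance 0 of the 9 were called lower in G200.

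**Figure D5:**
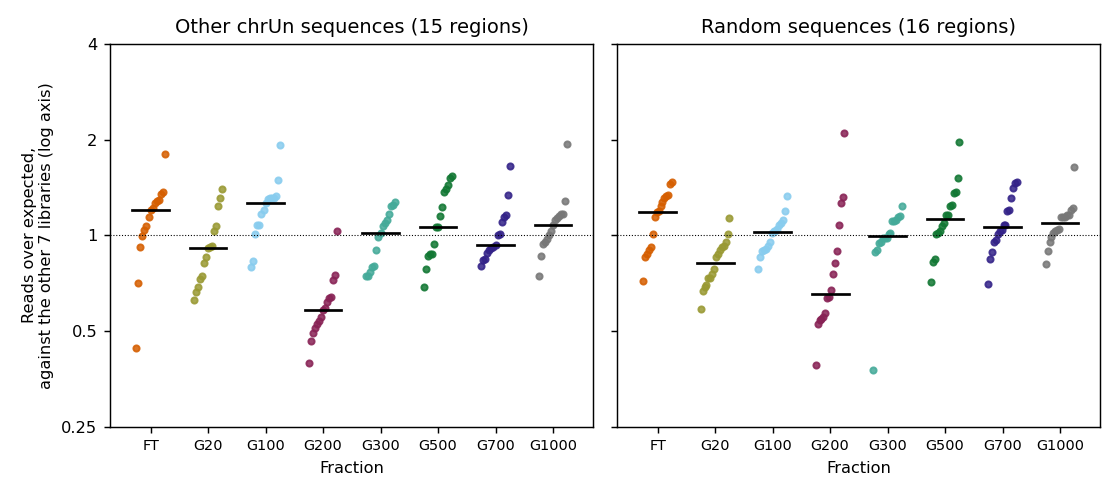
Summit reads over the reads expected from the other 7 libraries (vertical, log axis) for the 15 regions on other chrUn sequences (left) and the 16 on random sequences (right), with 1 point for each region, sorted within each fraction, and a bar at the median. In G200 14 of 15 and 12 of 16 points lie below 1.

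The chromosome 9 sequence gl000199_random had 9 regions in all lists. All 9 were below 1 in G200 (0.390 to 0.820) and in G20 (0.668 to 0.917), and all 9 were above 1 in FT (1.01 to 1.47). Over all regions 44.3%, 46.4% and 51.0% were above 1 in G200, G20 and FT. A low G20 was not particular to this sequence, since 34 of the 41 member regions were below 1 there. The random group together was at 0.843 in G20, and at 0.781 in FT when scaled to the genome background. The strongest region of gl000199_random, at 34295 to 34716, had 236, 163 and 127 reads in FT, G20 and G100, 79 in G200, 177 in G300, and 105, 91 and 118 in G500, G700 and G1000. It was called lower in G200 (0.546, adjusted p = 1.0e-05 by the exact binomial test) and higher in FT (1.33, adjusted p = 0.0296), but the FT ratio was 0.950 when scaled to the genome background. The FT call was also lost with the widened variance, and without G200, at 1.25 (adjusted p = 0.494 by the exact binomial test). The regions at 72398 to 73271, 124241 to 125296 and 168052 to 168781 were also called lower in G200, at 0.540, 0.390 and 0.554. The region at 106996 to 107476 had 59, 35 and 32 reads in FT, G20 and G100, 21 in G200, 54 in G300, and 51, 26 and 24 in G500, G700 and G1000. It was called higher in G500 (1.96, adjusted p = 0.0106 by the exact binomial test), though not without G200 (1.84, adjusted p = 0.0819). In G500, 0.166% of all regions were called higher, and 2 of the 7 were members.

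The second of these was on gl000226. Its region at 5017 to 6066 had 148, 95 and 114 reads in FT, G20 and G100, 60 in G200, 133 in G300, and 113, 66 and 90 in G500, G700 and G1000. It was called higher in G500 (1.54) and lower in G200 (0.555). The neighbour at 6552 to 7569 was called lower in G20 (0.663), and the third region, at 13395 to 14917, was called lower in G200 (0.582). By the same exact test the G500 call was lost without G20 (1.47, adjusted p = 0.0504) or G200 (1.45, adjusted p = 0.131). The G20 call was lost without G100 (0.685) or G500 (0.691), and when scaled to the genome background (0.761). Without FT the G200 call of the region at 13395 was lost (0.602, adjusted p = 0.0558 by the exact binomial test). Over all regions 46.4%, 44.3% and 47.9% were above 1 in G20, G200 and G500. All 3 regions of gl000226 lay below 1 in G20 and G200 and above 1 in G500, and their ratios together were 0.691 in G20, 0.632 in G200 and 1.46 in G500. Without FT and G200 the first 2 regions were called lower in G20, at 0.629 and 0.637, and the G500 ratio of the region at 5017 was 1.47 and not called. The local background there was high, at 74.4 to 118 times the genome background for the region at 5017.

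On gl000228 both regions were called lower in G200. The region at 118087 to 118886 had 225, 160 and 150 reads in FT, G20 and G100, 70 in G200, 136 in G300, and 106, 111 and 110 in G500, G700 and G1000. Its G200 ratio was 0.493 (interval 0.381 to 0.628, adjusted p = 2.1e-07 by the exact binomial test), and that of the region at 116727 to 117785 was 0.526. On gl000216 the region at 145033 to 145537 had 160, 109 and 87 reads in FT, G20 and G100, 52 in G200, 129 in G300, and 60, 64 and 72 in G500, G700 and G1000. It was called lower in G200, at 0.536.

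A single member region outside gl000220 was called higher in G200. It lay at 84517 to 87930 of gl000205_random, and at 3414 bp was the widest member region called in all lists. It had 222, 208 and 176 reads in FT, G20 and G100, 235 in G200, 234 in G300, and 148, 119 and 140 in G500, G700 and G1000. Its ratio of 1.32 (adjusted p = 0.0274 by the exact binomial test) was not called with the widened variance (adjusted p = 0.865), or without FT or G20 (1.30 in each case). The 4 regions of gl000195_random, from 0.671 to 1.26 in G200, were called in no library. The strongest of them, at 30472 to 33247, had 212, 214 and 139 reads in FT, G20 and G100, 211 in G200, 229 in G300, and 141, 106 and 137 in G500, G700 and G1000.

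The remaining sequences with a region in all lists gave no call, and several were shallow. The region of gl000212 at 40509 to 41242 had 33, 21 and 29 reads in FT, G20 and G100, 8 in G200, 27 in G300, and 10, 11 and 11 in G500, G700 and G1000, with ratios of 0.396 in G200 and 1.93 in G100. The region of gl000214 at 64355 to 65291 had 10 (G700) to 24 (G1000) reads, and its ratio was highest in G1000, at 1.94. On the chromosome 1 sequence gl000191_random the region at 29067 to 29889 had 20 reads in both FT and G200 and 5 to 13 in the other 6 libraries. Its ratios of 2.10 in G200 and 0.377 in G300 were the extremes of the random group. The region of gl000225 at 67254 to 67662 had 77 reads in FT and 31 in G200. A G200 ratio of 0.396 with 8 reads on gl000212 was thus not called, where 0.493 with 70 reads on gl000228 was. On simulated counts of 4220 regions, with counting spread only, changed regions were drawn at random over all depths. The test found 94.0% of 3-fold rises (50 regions), 32.5% of 2-fold rises (40 regions) and 5.97% of falls to 0.5 times (67 regions).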

How the data were processed

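ATAC-seq peak lists of 8 fractions of 293T cells, 1 library each, were used as the authors deposited them. Bowtie2 2.2.6, MACS2 2.2.1 and HOMER are named in the submitters' processing notes, with the builds hg19 and mm10. The sequence names in the files are those of hg19. The sources used here do not state read filters, peak calling settings or the treatment of multiply mapped reads. For each peak the authors deposited a whole-number score, its fold enrichment (ratio of summit pileup to local background), and −log10 p and q values.

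MACS2 adds 1 to pileup and to background before dividing them, and takes p from a Poisson distribution. Pileups were recovered as the whole number up to 3000 that met both equations within 0.001 of the deposited −log10 p. A single pileup was found for at least 99.31% of the peaks of every list. The lowest background shared by at least 20 peaks was taken as the genome background. Peaks sharing 1 bp were merged. Of 4241 regions in all 8 lists, 4220 had a pileup in each and were tested. Expected shares came from 4098 ordinary regions, over 1 Mb from the longest peak-free stretch of a placed chromosome and over 20 kb from its first base and its last peak. Counts of ordinary regions with a ratio at least as high look in that direction only, not at equally low ratios. The test, run with SciPy 1.17.1, was tried on simulated counts, where 1 of 4020 unchanged regions was called. These counts had counting spread only. The variance of reads in G200 and FT was 2.49 and 1.61 times that of counting, so the simulation does not measure false calls in those libraries.

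Named regions were all gl000220 regions in 8 lists, the top-ranked region of each other sequence with one, all called members, and the strongest member peak of each list. Others named, with the stretches and the chromosome 21 pair, were picked with their values in view. The members, regions and tests were chosen with earlier results of these data known.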

Additional observations from a re-analysis of the deposited data

How the results depend on the processing

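No paired analysis was possible because each fraction is 1 library, so the groups share fewer than 2 replicate numbers. With scaling to the genome background 1187 regions were called in all, 13 members were higher and 0 lower in G200, and 1 was higher and 5 lower in FT. Group ratios were then 4.23 in G200 and 0.986 in FT for gl000220, 0.944 and 0.850 for the other chrUn sequences, and 1.36 and 0.781 for the random sequences. In FT 4 regions turned, gl000199_random at 34295 (0.950) and gl000220 at 109217 (0.930), 116972 (0.997) and 153190 (0.914). The widened variance left 40 calls, 11 in members and 0 lower in G200. With peaks of −log10 q of 5 or more, gl000220 was at 2.76 in G200 and the other chrUn sequences at 1.30 in FT. The authors' fold in place of reads gave 1.05 in G200 and 0.964 in FT for gl000220, and 0.863 and 1.09 for the other chrUn sequences. Without both FT and G200, an alternative chosen after seeing the data, 19 regions and 3 members were called, and between the sides 6 and 1.

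Leaving out 1 library at a time gave 45 to 110 calls in all and 11 to 21 in members, both lowest without G200. It gave 7 to 9 members higher and 8 to 10 lower in G200, and 7 to 9 higher and 0 lower in FT. Between the sides it gave 7 to 23 calls, with 1 to 8 members higher on the low side, lowest without FT, and 0 on the high side. The ratio of gl000220 at 116972 in G20 was 0.749 without G300 to 1.09 without G200, where it turned. The ratio of gl000220 was 2.49 to 3.03 in G200 and 1.28 to 1.80 in FT, that of the other chrUn sequences 0.564 to 0.597 and 1.12 to 1.23, and that of the random sequences 0.811 to 0.852 and 1.06 to 1.11. Of 833 comparisons over 66 region results, 751 kept their direction and call, 77 lost the call and 5 turned. This total pools unlike alternatives. Expected shares from all placed regions changed little and kept all 66. Without G200, 19 of 49 were kept, 29 lost the call and 1 turned, and on gl000220 18 of 45 were kept. Each library is set against the sum of the others, so leaving out 1 that is high in a region raises the other ratios there. Other causes were not tested.

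The member share of lists of equal length was 1.06%, 0.852% and 0.778% in FT, G20 and G100, 0.679% in G200 and 0.815% in G300. With −log10 q of 5 or more it was 0.771%, 0.711%, 0.824%, 0.628% and 0.731% in these, 1.10% in G500 and 0.978% in G1000. Regions in all 8 lists were 10.6% of all with 50% overlap and 18% with equal lists. On simulated counts at these depths the test found 9.30% of the 43 regions given a 1.5-fold rise.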
